A study of Mus musculus with 36 samples.

Results

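BAF complexes exist in a progenitor and a neuronal form, and the mRNAs of the subunits that are exchanged between these forms are described here in the embryonic mouse cortex. The set holds 10 of the 55487 genes of the count table: the progenitor-form subunits Actl6a, Phf10, Dpf2 and Ss18, their neuronal counterparts Actl6b, Dpf1, Dpf3 and Ss18l1, and the ATPases Smarca4 and Smarca2. The genes were picked by name, in a choice made with earlier results of these data known, and all 10 passed the filter on low counts in each cross. Cortices of female embryos at E14.5 were lysed as pools of 2 embryos of 1 genotype. RNA was then sequenced from the lysate (input), from the gradient fractions with a single ribosome (monosome) and from those with several ribosomes (polysome). In the LoF cross, conditional heterozygotes (cHet; Emx1-Cre/+;Ddx3x lox/+) were set against controls that carried Ddx3x lox/+ without Cre. In the T532M cross, cHet (Emx1-Cre/+;Ddx3x-T532M lox/+) were set against Emx1-Cre/+ controls, so that Cre differed between the genotypes in the LoF cross and was shared in the T532M cross. Each of the 12 groups of cross, genotype and fraction held 3 libraries, 1 from each of 3 pools. Emx1-Cre acts in dorsal telencephalic progenitors and the cells born from them, so cells of other origin in the same pool were not recombined.

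BAF (mammalian SWI/SNF) complexes use the energy of ATP to slide or evict nucleosomes, and they are built around Smarca4 (BRG1) or Smarca2 (BRM). When neural progenitors leave the cell cycle, the actin-related subunit Actl6a (BAF53a) is replaced by Actl6b (BAF53b), the PHD-finger subunit Phf10 (BAF45a) by Dpf1 (BAF45b) and Dpf3 (BAF45c), and Ss18 by Ss18l1 (CREST). Dpf2 (BAF45d) is a further member of the PHD-finger family. This exchange is known for its role in neuronal maturation and dendrite growth, and the microRNAs miR-9 and miR-124 are known to repress Actl6a in neurons. Ddx3x is an RNA helicase that acts in translation initiation.

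The 36 libraries held 36999365 to 57935512 read pairs assigned to genes. Targeted Ddx3x, counted over its whole gene span, was 2480, 2060 and 2570 CPM (CPM here divides a gene's read pairs by the library total scaled with edgeR's TMM factors) in LoF control polysomes and 2220, 1700 and 1770 CPM in LoF cHet polysomes, and its input values overlapped between these genotypes. In LoF monosomes Ddx3x was at 278, 337 and 275 CPM in controls and 250, 175 and 193 CPM in cHet, without overlap. In T532M polysomes it was at 3120, 3570 and 2340 CPM in controls and 4160, 6010 and 5410 CPM in cHet. T532M input was at 49.2, 148 and 110 CPM in controls and 241, 201 and 167 CPM in cHet, and T532M monosomes overlapped. Ddx3x passed edgeR's test between genotypes in no fraction of either cross (adjusted p of 0.264 or more), and counts over the whole span do not isolate the floxed part. Sox2 and Tubb3, markers of radial glia and neurons, were at 0 in every library; each gene model overlaps 1 other gene on the same strand. The other 9 of 10 markers of each of these cell types passed the filter on low counts. A polysome library here holds mRNA of all cells of the pool, so fewer cells of a type and less RNA per cell cannot be told apart in any fraction.

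Smarca4 was the most abundant of the subunit mRNAs in input and polysomes of controls, Dpf1 led in monosomes, and Dpf3 was last in each fraction. Levels are compared between genes as CPM per kb of transcript (mean ± SD, n = 3 pools), with the transcript length from the GENCODE M21 models. In the LoF control input, Smarca4 stood at 71.1 ± 8.16 and Actl6a at 55.8 ± 4.88 CPM per kb. Dpf1 (48.5 ± 7.18) overlapped with Actl6a, and Phf10 (41.8 ± 1.85), Actl6b (37.8 ± 3.7) and Dpf2 (32.9 ± 2.06) followed. Actl6b overlapped with Phf10 and with Dpf2, whereas Dpf1 and Phf10 did not overlap, nor did Dpf2 and Ss18. Ss18 (15.8 ± 0.539), Smarca2 (14.4 ± 0.924) and Ss18l1 (13.8 ± 0.569) lay lower and close together, and Dpf3 was at 2.41 ± 0.397 CPM per kb. In the T532M control input Smarca4 (68.3 ± 4.49) again led and Dpf3 (2.82 ± 0.636) was again last. Dpf1 was there at 60.4 ± 16.1, before Actl6a at 56.3 ± 5.15, and overlapped with it and with Smarca4. Ss18l1, Smarca2 and Ss18 were at 14.3 ± 1.65, 13.3 ± 1.83 and 13.1 ± 2.45 CPM per kb and overlapped as neighbours. In control monosomes Dpf1 was at 39.9 ± 5.83 in LoF and 43.9 ± 6.81 CPM per kb in T532M, above all other members without overlap. Smarca4 (27.2 ± 3.38 and 28.8 ± 3.7), Phf10 (26.9 ± 1.76 and 30.1 ± 2.74) and Actl6b (25.8 ± 2.9 and 26.5 ± 6.58) followed and overlapped as neighbours. In LoF control polysomes the order was Smarca4 (405 ± 56), Actl6a (119 ± 2.01), Smarca2 (56.7 ± 7.65), Phf10 (42.2 ± 2.31), Dpf2 (32 ± 1.6), Ss18 (28.7 ± 5.93), Actl6b (21.7 ± 2.27), Dpf1 (20.9 ± 2.79), Ss18l1 (17.6 ± 1.47) and Dpf3 (6.61 ± 0.742 CPM per kb). From Dpf2 to Ss18l1, the ranges of neighbours in that polysome order overlapped. Reads were counted over whole gene spans, introns included, so these levels are set against mature transcript lengths only approximately. The same counts enter the comparisons between fractions and the ratios below, and the share of intron reads in each fraction was not measured.

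**Figure D1:**
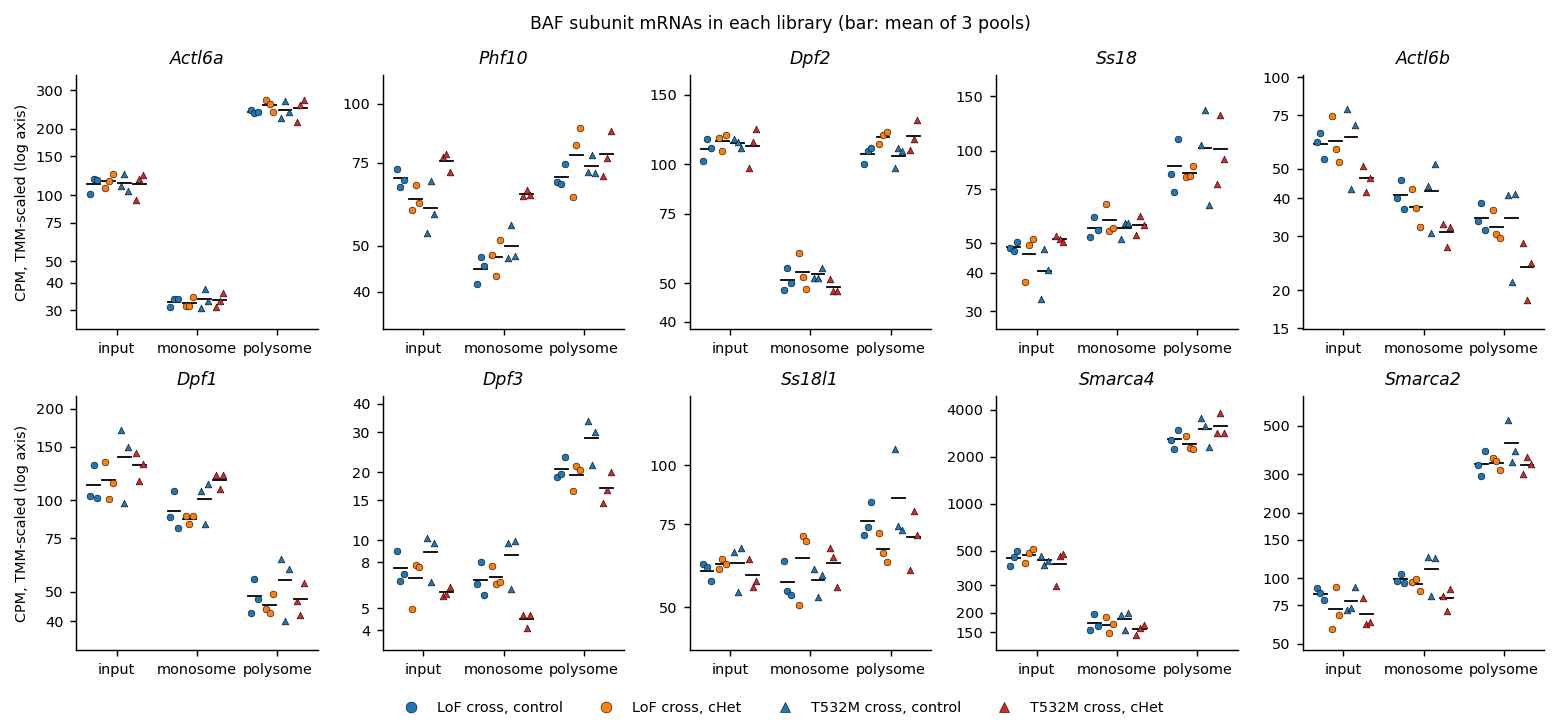
TMM-scaled CPM of the 10 subunit mRNAs on log axes, by fraction; each point is 1 library, colour and shape give cross and genotype, and the short bar is the mean of 3 pools. Smarca4 polysome libraries lie between 2230 and 3780 CPM and its monosome libraries between 144 and 200 CPM, whereas Dpf1 is lowest in polysomes, at 40.1 to 64 CPM.

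The first comparison asked how the subunit mRNAs of control cortex were divided between polysomes and monosomes. Smarca4, Actl6a, Smarca2 and Dpf3 were higher in polysomes than in monosomes in both crosses, and Dpf1 was lower. Sequencing gives shares of a library and not amounts of RNA, so a direction between fractions depends on the scaling. TMM factors were 0.576 to 0.731 in polysome libraries and 1.15 to 1.28 in the other fractions. With library totals alone the median of all genes moved by -0.814 (log2) in LoF and by -0.975 in T532M controls. The share of calls that were higher in polysomes moved from 44.7% to 28.7% and from 45.1% to 25.8% of called genes. Each member is therefore also given as its distance from the median of all genes tested and as its percentile among them, which the scaling hardly moves. By edgeR's quasi-likelihood test with TMM factors and Benjamini-Hochberg adjustment over all genes, 9 of 10 members passed in each cross, 8 of them higher and 1 lower. Passing is common in this comparison: 81.2% of all genes passed in LoF controls (36.4% as higher and 44.9% as lower) and 79.9% in T532M controls (36% as higher and 43.9% as lower). With library totals 5 members passed as higher and 3 as lower in LoF controls, and 4 and 4 in T532M controls, where 24.3% and 21.5% of all genes passed as higher and 60.2% and 62% as lower. The members' median log2 fold change was 0.85 in LoF and 0.93 in T532M controls, against -0.31 for all genes in each cross. The median depends on the genes taken: over 14245 protein-coding genes tested in both crosses it was higher, at 0.14 and 0.11.

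Actl6a, the progenitor form's actin-related subunit, was in LoF control monosomes at 30.9, 33.7 and 33.6 CPM and in polysomes at 244, 236 and 239 CPM. In T532M controls it was at 30.7, 37.5 and 32.9 CPM in monosomes and at 224, 268 and 239 CPM in polysomes. The fractions were far apart in every pool, with log2 fold changes of 2.86 (SE 0.104, edgeR adjusted p = 1.4e-14) and 2.85 (SE 0.133, adjusted p = 8.71e-13). These put Actl6a at percentiles 93.9 and 93.0 of all genes, 3.17 and 3.15 log2 units above their median. With library totals the folds were 2.05 and 1.87, still past the threshold. Actl6a (ENSMUSG00000027671.14) lies on the plus strand of GRCm38 at chr3:32706298-32726973. Its 3′ UTR of 374 nt holds 1 match to the seed of miR-9-3p. The microRNA (RefSeq) is shown with its seed, bases 2 to 8, in capitals, because miR-9 is a known repressor of Actl6a. Matches to miR-124 were not searched. The matching stretch of both members that hold one follows, with the seed match in capitals.
mmu-miR-9-3p: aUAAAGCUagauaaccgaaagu
Actl6a, chr3:32726629-32726650, plus strand: tcaacgtctgtAGCTTTAgtac
Smarca2, chr19:26777491-26777512, plus strand: catctagaactAGCTTTAgggt
The 7 letters AGCTTTA, read on the transcript strand only, occur in 1656 of 14026 3′ UTRs of genes tested in both crosses (11.8%), whatever their length. They start at position 41 of the Actl6a 3′ UTR and at position 135 of the 954-nt 3′ UTR of Smarca2, each within 1 exon. No match was found in the 3′ UTR models of the other 8 members, which include Actl6b with 199 nt. The seed match of miR-9-5p, ACCAAAG, was in none of the 10 models and in 13.1% of all 3′ UTRs.

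Phf10, the progenitor form's PHD-finger subunit, had a moderate polysome share. It was at 41.6, 47.3 and 45.3 CPM in LoF control monosomes and at 68.2, 67.6 and 74.5 CPM in polysomes, with a log2 fold change of 0.64 (SE 0.114, edgeR adjusted p = 4.09e-05), and at 0.55 in T532M controls. This direction turned with library totals, to -0.18 (adjusted p = 0.19) and -0.43 (adjusted p = 0.00322, called as lower), while Phf10 stayed 0.95 and 0.86 (0.95 and 0.85 with totals) above the median of all genes, at percentiles 66.2 and 64.6. Ss18, which binds the ATPase module, likewise turned from 0.65 and 0.87 to -0.17 and -0.14 and lay at percentiles 66.4 and 69.8. Its T532M control polysomes spread from 66.5 to 136 CPM. Dpf2, which reads histone marks through its PHD fingers, went from 48.1, 54.8 and 50.1 CPM in LoF control monosomes to 100, 108 and 110 CPM in polysomes. Its log2 fold change was 1.05 in LoF and 0.99 in T532M controls, and 0.23 (adjusted p = 0.0471) and 0.02 (adjusted p = 0.877) with library totals. The 4 progenitor-form subunits thus all lay above the median of all genes, by 0.86 to 3.17 log2 units.

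The ATPases Smarca4 and Smarca2 ranked 1 and 3 of the 10 members in polysome over monosome. Smarca4 was at 156, 197 and 166 CPM in LoF control monosomes and at 2560, 2230 and 2940 CPM in polysomes. Its log2 fold change was 3.89 (SE 0.159, edgeR adjusted p = 4.59e-14) in LoF and 4.02 (SE 0.216) in T532M controls, at percentile 98.9 of all genes in each. Smarca2 was at 97.3, 105 and 95.3 CPM in LoF control monosomes and at 329, 294 and 384 CPM in polysomes, a log2 fold change of 1.75 (SE 0.141). In T532M controls it was at 1.92 (SE 0.186), and the percentiles were 82.2 and 83.7. Both stayed called as higher with library totals, Smarca4 at 3.07 and 3.03 and Smarca2 at 0.93 and 0.94.

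The neuronal-form subunits did not share 1 position. Dpf3, which binds acetylated histones, was at 6.38, 8 and 5.75 CPM in LoF control monosomes and at 19.1, 19.7 and 23.4 CPM in polysomes. Its log2 fold change was 1.62 (SE 0.175, edgeR adjusted p = 6.04e-08) in LoF and 1.72 (SE 0.209) in T532M controls, at percentiles 80.5 and 81.3, and 0.80 and 0.75 with library totals. Dpf1 ran the other way: 87.9, 107 and 81.3 CPM in LoF control monosomes stood against 42.5, 55.2 and 47.2 CPM in polysomes. Its log2 fold change was -0.94 (SE 0.137, edgeR adjusted p = 3.58e-06) in LoF and -0.90 (SE 0.196, adjusted p = 0.000384) in T532M controls, at percentiles 38.9 and 39.5. With library totals it was -1.75 and -1.87, so it was called as lower under both scalings. It was also the one member below the median of all genes, at a distance of -0.63 and -0.60. Against the medians of protein-coding genes (0.14 and 0.11), Actl6b lay below as well.

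Actl6b, the neuron-specific actin-related subunit, lay next to the median of all genes and below that of protein-coding genes. It was at 40.2, 46 and 36.9 CPM in LoF control monosomes and at 33.7, 38.5 and 31.4 CPM in polysomes, and the fractions overlapped. The log2 fold change of -0.26 had an edgeR adjusted p of 0.102, and that of -0.30 in T532M controls one of 0.286. The fractions of a number share a pool, and with the pool as a block both values passed, at -0.26 in LoF (adjusted p = 0.0136) and -0.33 in T532M controls (adjusted p = 0.00879). With library totals Actl6b was called as lower, at -1.07 and -1.25, at 0.06 and 0.03 above the median of all genes. Ss18l1, a calcium-responsive transactivator, was at 62.8, 54.1 and 53.1 CPM in LoF control monosomes and at 71.3, 74 and 83.4 CPM in polysomes. Its log2 fold changes of 0.42 (edgeR adjusted p = 0.00321) and 0.56 turned to -0.40 and -0.43 with library totals, which called Ss18l1 as lower (adjusted p = 0.00406 and 0.00583). With TMM factors it lay at percentiles 62.6 and 64.9. Without LoF control pool 3, the value in LoF controls was 0.31 and no longer passed (adjusted p = 0.0824).

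**Figure D2:**
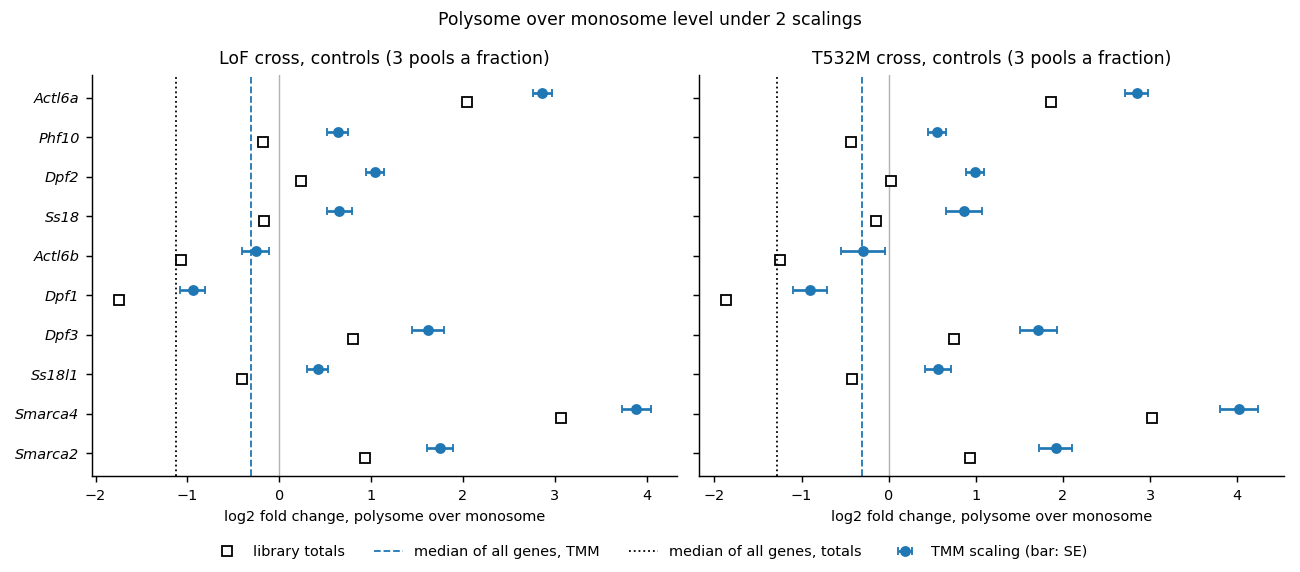
Log2 fold change of polysome over monosome for each subunit in the controls of each cross; filled circles use TMM factors with SE bars, open squares use library totals, and vertical lines mark the median of all genes under each scaling. Smarca4 (3.89 and 4.02) and Actl6a (2.86 and 2.85) stand farthest to the right, Actl6b sits at the median, Dpf1 lies to the left of it, and Phf10, Ss18 and Ss18l1 cross 0 with library totals.

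Against input, monosomes held less of Actl6a, Smarca4 and Dpf2 in both crosses, and polysomes held less of Actl6b and Dpf1. In monosome over input, 5 members passed in LoF controls, all lower, where 62.7% of all genes passed (30.6% as lower). Actl6a was at -1.78, Smarca4 at -1.38, Dpf2 at -1.10, Phf10 at -0.63 and Actl6b at -0.55. In T532M controls 7 members passed, 6 lower and 1 higher, where 63.1% of all genes passed (31% as lower and 32.1% as higher). Actl6a (-1.78), Smarca4 (-1.28) and Dpf2 (-1.14) again led, and Smarca2 was the higher one, at 0.45 (edgeR adjusted p = 0.0366). The calls of Actl6b, Dpf1 and Smarca2 were lost without T532M control pool 1 (adjusted p = 0.196, 0.172 and 0.207) or pool 3 (0.0545, 0.0864 and 0.0787), and that of Phf10 without pool 3 (0.103), which left 4 and 3 members. Without T532M cHet pool 3, which enters this fit through the shared spread, Actl6b and Smarca2 were at 0.0593 and 0.0556, and without cHet pool 2 Smarca2 was at 0.0517. With the pool as a block Ss18 passed as well (0.44, adjusted p = 0.0353), and in LoF controls Dpf1 (-0.28, adjusted p = 0.0257). Library totals aside, Ss18 passed there in 3 of 11 settings and Dpf1 in LoF controls in 2 of 11. With library totals Phf10, Actl6b and Dpf1 no longer passed (adjusted p = 0.096, 0.0561 and 0.056) and Ss18 did (0.48, adjusted p = 0.0193). Without the low-count filter Phf10 was at 0.103. In polysome over input, 8 members passed in LoF controls (6 higher, 2 lower; background 79.3%: 36.5% higher and 42.8% lower) and 9 in T532M controls (7 higher, 2 lower; background 79.0%: 36.6% higher and 42.4% lower). Smarca4 was at 2.50 and 2.74, Smarca2 at 1.97 and 2.37, Dpf3 at 1.45 and 1.64, Actl6a at 1.09 and 1.06, Actl6b at -0.81 and -0.93, and Dpf1 at -1.22 and -1.40. With library totals 4 members passed as higher and 5 as lower in LoF, and 3 and 5 in T532M, Actl6a in T532M among the higher calls lost (0.14, adjusted p = 0.349), and the all-gene median moved by -0.842 and -0.919. Of the called genes, 46% and 46.3% were higher with TMM and 29.4% and 29.2% with totals. Ss18l1, at 0.34 and 0.41, did not pass without LoF control pool 3 (adjusted p = 0.169) or T532M control pool 1 (0.101). Phf10 in T532M (0.26) passed in 8 of 11 settings, library totals aside. Among the settings where it did not were those without control pool 1 (0.103) or 3 (0.0901).

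The balance between the forms within a library does not depend on the scaling. It is given as the log2 ratio of read pairs, not divided by length, so it describes shifts between fractions and not which form was more abundant. Actl6b over Actl6a was -0.90 ± 0.2 (mean ± SD, n = 3) in LoF control input, 0.32 ± 0.16 in monosomes and -2.80 ± 0.16 in polysomes, and -0.87 ± 0.58, 0.30 ± 0.5 and -2.88 ± 0.67 in T532M controls. Over all 12 libraries of each fraction the ratios ran from -1.54 to -0.49 in input, from -0.28 to 0.65 in monosomes and from -3.78 to -2.45 in polysomes, with no overlap. The coding sequences of this pair are of nearly equal length, 1287 nt in Actl6a and 1278 nt in Actl6b.

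Dpf1 over Phf10 changed sign between fractions. It ran from 0.49 to 1.67 in input, from 0.59 to 1.25 in monosomes and from -0.96 to -0.17 in polysomes, so every library had more Dpf1 than Phf10 read pairs outside polysomes and fewer within them. Dpf3 over Phf10 moved the opposite way in LoF controls, from -3.22 ± 0.17 in input and -2.75 ± 0.21 in monosomes to -1.76 ± 0.084 in polysomes. The 2 neuronal subunits that take the place of Phf10 thus shifted against it in opposite directions from monosomes to polysomes. In polysomes both had fewer read pairs than Phf10. Smarca2 over Smarca4 was near -0.8 in LoF control monosomes (-0.80 ± 0.11), against -2.41 ± 0.26 in input and -2.94 ± 0.017 in polysomes. Ss18l1 over Ss18 moved least, from 0.29 ± 0.11 in input to 0.01 ± 0.22 in monosomes and -0.21 ± 0.2 in polysomes of LoF controls, and its fractions overlapped over the 12 libraries.

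**Figure D3:**
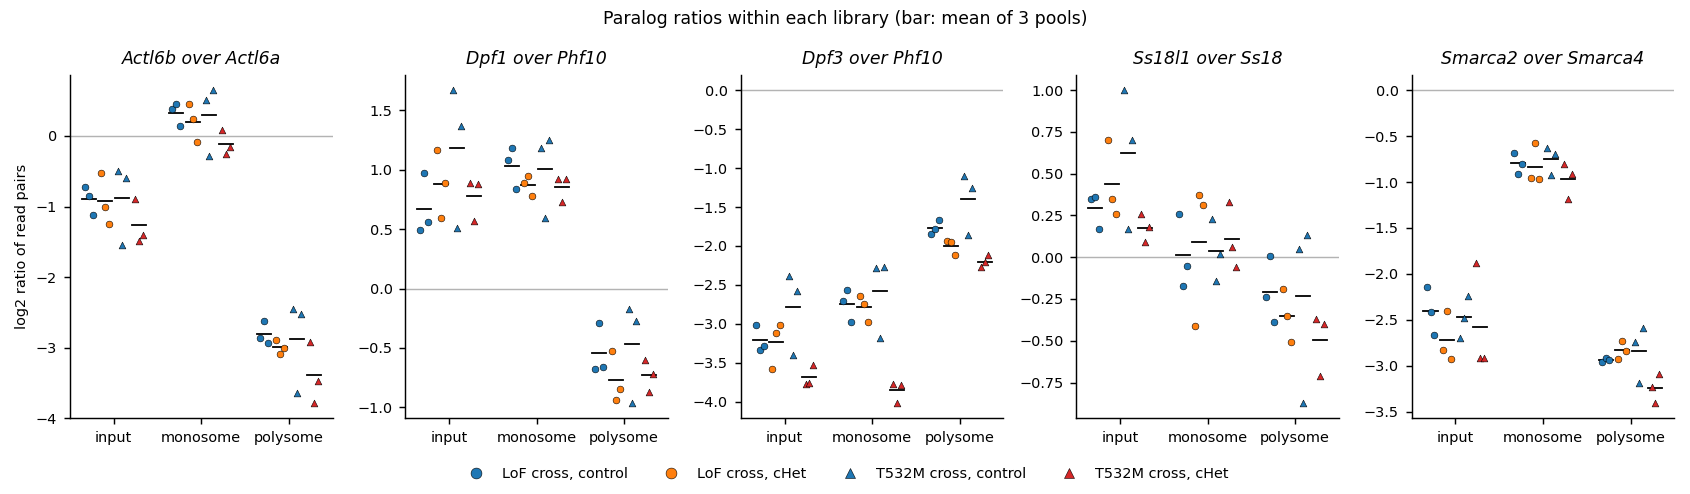
Log2 ratio of read pairs of each neuronal subunit over its progenitor counterpart, and of Smarca2 over Smarca4, in each library by fraction; the short bar is the mean of 3 pools. Actl6b over Actl6a separates all 3 fractions, and Dpf1 over Phf10 is above 0 in input and monosomes and below 0 in polysomes.

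What the subunits share beyond their names was read from their transcript models. The ATPases have coding sequences of 4842 nt (Smarca4) and 4749 nt (Smarca2), at percentiles 95.2 and 95.0 of protein-coding genes, and the others 1134 to 1491 nt, near the median of 1395 nt. Across 14245 genes, longer coding sequences went with higher polysome over monosome values (Spearman's rho 0.64 in each cross). Among the 10 members rho was 0.49 in LoF and 0.44 in T532M controls. Length does not order the short members: Actl6a, with 1287 nt, lay at percentile 93.9 of polysome over monosome in LoF controls and Dpf1, with 1164 nt, at 38.9. GC content of the 5′ UTR was 85.7% in Dpf1, 82.3% in Phf10, 77.4% in Actl6b, 76.0% in Ss18, 73.2% in Ss18l1, 70.8% in Smarca4, 65.7% in Dpf2, 62.2% in Actl6a and 58.7% in Smarca2, against a median of 64.2% over all genes. The 5′ UTR model of Dpf3 has 8 nt and gave no value. Over these 9 members rho between 5′ UTR GC and polysome over monosome was -0.80 and -0.85, whereas over 13851 genes it was 0.021 and 0.017. These correlations across genes share libraries and depth and are given without a test, since genes are not independent replicates and the members were chosen by hand.

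For each member the genes most alike over the 36 libraries were found among 11498 named genes, as Pearson's r of log2 CPM, which here reflects mainly the differences between fractions. Actl6a was most like Cdc20 and Eno1 (r = 0.998 for each), and Smarca4 most like Copg1 and Aco1 (0.999 for each). Dpf2 was most like Drg2 (0.99) and Rbbp4 (0.989), Ss18 like Utp20 (0.952) and Pole (0.95), and Phf10 like Eed (0.918) and F2r (0.917). Among the neuronal subunits, Dpf1 was most like Podxl2 (0.973) and Abhd12 (0.968), Dpf3 like Sybu (0.965) and Tbc1d24 (0.962), and Actl6b like Sema6b (0.942) and Caly (0.937). Ss18l1 had the lowest top value, 0.809 with Gfod1, and Smarca2 was most like Slc8a1 and Shtn1 (0.991 for each).

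The other subunits of BAF complexes, a list of 21 genes, were divided as widely. In polysome over monosome, 14 passed as higher and 5 as lower in LoF controls, with a median of 1.13, beside 36.4% and 44.9% of all genes, and 14 and 5 passed in T532M controls. With library totals 11 passed as higher and 7 as lower in LoF controls, and 9 and 8 in T532M controls, with medians of 0.32 and 0.08. Under both scalings 16 of the 21 lay above the median of all genes in each cross. With TMM factors Smarcc1, a scaffold subunit, was at 3.29, Actb, the actin of the complex, at 2.79, Smarcb1, a core subunit, at 2.74, and Pbrm1, the bromodomain subunit of the PBAF form, at 2.58 in LoF controls. Bcl7b (-1.47) and Bicral (-1.32) led those called as lower. None of the 21 passed in any comparison of cHet with control. Of the regulators of the exchange, Rest, a repressor of neuronal genes, was at 0.63 with TMM factors and -0.19 (adjusted p = 0.152) with totals, and the splicing factors Ptbp1 and Ptbp2 at 2.63 and 3.29 (1.81 and 2.48 with totals) in LoF controls.

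The second comparison, of cHet with control, asked whether the Ddx3x genotype changed the level of the subunit mRNAs in each fraction. In the LoF cross no member passed in any fraction by edgeR, where 0 of 18556 genes passed in input (0.0%), 2 in monosomes (0.0108%) and 0 in polysomes (0.0%). No member had an unadjusted p under 0.05 in these 3 comparisons (10.8%, 4.2% and 3.23% of all genes did), and DESeq2 called none. Log2 fold changes ran from -0.23 to 0.08 in input, from -0.13 to 0.16 in monosomes and from -0.19 to 0.16 in polysomes. Dpf2 polysomes, at 113, 119 and 121 CPM in cHet and 100, 108 and 110 CPM in controls, were the single case of 30 in which the genotypes did not overlap (6.52% of 18030 genes did not overlap in that comparison, 11.3% in input and 10.6% in monosomes). Dpf3, the member discussed next, was at 6.38, 8 and 5.75 CPM in LoF control monosomes and at 7.68, 6.42 and 6.55 CPM in LoF cHet.

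In the T532M cross 1 member passed, Dpf3 in monosomes, lower in cHet. It was at 9.73, 6.11 and 9.92 CPM in control monosomes and at 4.69, 4.08 and 4.68 CPM in cHet, from 383 to 528 and from 214 to 230 read pairs. The genotypes did not overlap, and control pool 2 was the lowest control. The cHet values lay below all 6 LoF monosome libraries (5.75 to 8 CPM), and control pools 1 and 3 lay above all 6. The log2 fold change was -0.94 (SE 0.212, edgeR adjusted p = 0.0388), in a comparison where 188 of 18243 genes passed (1.03%), 178 of them as higher (0.976%) and 10 as lower (0.0548%). With the replicate number as a block it was -0.92 (adjusted p = 0.00685), in a fit that called 349 genes (1.91%). The members were chosen with such results known, so this call is a description. In input Dpf3 was at 10.2, 6.54 and 9.76 CPM in controls and 5.65, 5.8 and 6.2 CPM in cHet. In polysomes it was at 33.5, 21.5 and 30.1 CPM against 14.6, 16.6 and 20.1 CPM. LoF libraries ran from 4.99 to 8.95 CPM in input and from 16.5 to 23.4 CPM in polysomes. There too T532M control pools 1 and 3 lay above every LoF library, and the cHet input values lay within the LoF range. In neither fraction did the T532M genotypes overlap, and neither passed: -0.61 in input (edgeR adjusted p = 0.344) and -0.72 in polysomes (adjusted p = 0.501). In the authors' deposited table the input value of Dpf3 was -0.63 with an adjusted p of 0.14. Its monosome and polysome columns held -0.33 (adjusted p = 0.759) and -0.06 (adjusted p = 0.998). The polysome column lay near the change of polysome over input found here (Dpf3 -0.11, Ss18 -0.34 against -0.28 in that column). The effects within polysomes were -0.72 and -0.01. Actl6b, at -0.48 in input and -0.45 in monosomes here, was at 0.03 in that monosome column. These 2 columns thus read as differences from the input effect and are not set against the values within fractions. Over both crosses, 0 of the authors' 60 values for the members had an adjusted p under 0.05. Of these, only the input values read as cHet over control within a fraction, so the Dpf3 effect within monosomes is not among them.

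The Dpf3 call in monosomes rested on every pool but control pool 2. Leaving out control pool 1 or 3 gave adjusted p values of 0.204 and 0.359, and leaving out cHet pool 1, 2 or 3 gave 0.149, 0.303 and 0.111, with log2 fold changes of -0.82 to -0.98. With library totals it was -0.93 and did not pass (adjusted p = 0.0586). Without control pool 2 the log2 fold change was -1.14 (adjusted p = 0.00297), and Dpf3 then passed in input (-0.80, adjusted p = 0.015) and polysomes (-0.89, adjusted p = 0.00867) too. Calls over all genes rose as well without that pool, from 1 to 543 genes in input (2.92%), from 188 to 636 in monosomes (3.42%) and from 0 to 139 in polysomes (0.747%). Control pool 2 also differed from the other T532M controls in cell type markers. Its summed level of excitatory neuron markers was 2810 CPM in monosomes, against 3570 and 3610 CPM in the other controls and 2760, 2720 and 2670 CPM in cHet. In input these sums were 3430, 2900 and 3660 CPM in controls and 2960, 2660 and 2790 CPM in cHet, and in polysomes 12600, 8190 and 10800 CPM against 7450, 7760 and 9050 CPM. LoF sums ran from 2950 to 3720 CPM in monosomes, from 2690 to 3500 CPM in input and from 7540 to 9520 CPM in polysomes. Control pool 2 lay below that range in monosomes and within it in input and polysomes, where control pools 1 and 3 lay above it. None of the 9 neuron markers tested passed between T532M genotypes in any fraction, but 7 of 9 lay lower in monosomes, with a median of -0.27. Meninges markers summed to 109 CPM in the input of control pool 2, against 12 and 26 CPM in the other controls and 100, 61.3 and 49.3 CPM in cHet. LoF inputs ran from 137 to 249 CPM, so control pools 1 and 3 were the lowest of all inputs for these markers. In the input of cHet pool 1 the markers of choroid plexus and hem summed to 249 CPM, and in the other T532M inputs to 10.9 to 24.5 CPM. The part of these differences in the Dpf3 result was not tested.

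**Figure D4:**
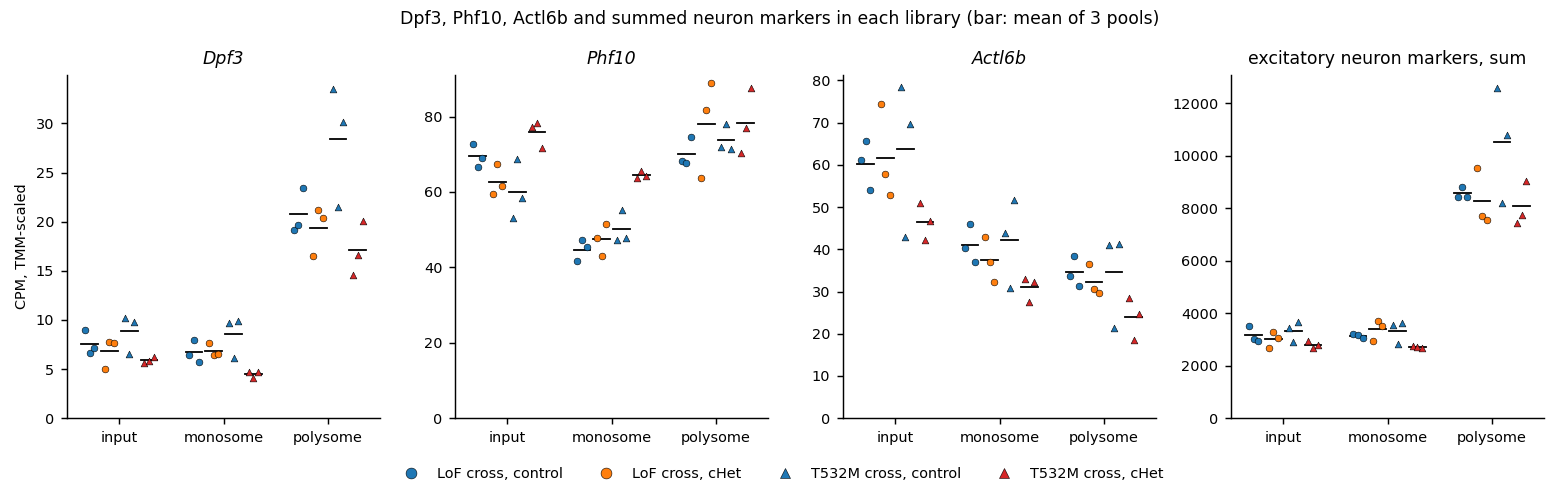
TMM-scaled CPM of Dpf3, Phf10 and Actl6b and the summed CPM of the excitatory neuron markers in each library, by fraction, cross and genotype; the short bar is the mean of 3 pools. In T532M, Dpf3 in cHet lies below the controls in all 3 fractions, and control pool 2 is the lowest control for Dpf3, Actl6b and the marker sum.

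Phf10 moved the other way in T532M cHet and did not pass. It was at 53.2, 68.8 and 58.3 CPM in control input and 77.2, 78.4 and 71.8 CPM in cHet input. In monosomes it was at 47.2, 55.3 and 47.7 CPM in controls and 63.8, 65.7 and 64.2 CPM in cHet, with no overlap in either fraction. The log2 fold changes were 0.32 (edgeR adjusted p = 0.323) and 0.36 (adjusted p = 0.125), and 0.10 in polysomes, where the genotypes overlapped. DESeq2 called the monosome value (0.34, adjusted p = 0.0304) and 3.09% of all genes, and without control pool 2 edgeR called both input (0.41, adjusted p = 0.0467) and monosomes (0.44, adjusted p = 0.0324). Actl6b was lower in cHet by similar amounts in each fraction, -0.48, -0.45 and -0.52, with unadjusted p values of 0.0728, 0.0916 and 0.0585. Control pool 2 lay near the cHet values for Actl6b: control input was 78.4, 43 and 69.6 CPM and cHet input 51, 42.1 and 46.6 CPM. Without that pool Actl6b passed in all 3 fractions, at -0.71, -0.63 and -0.77 (edgeR adjusted p = 0.027, 0.035 and 0.0351), and Smarca2 in monosomes at -0.63 (adjusted p = 0.049), within the wider rise of calls over all genes at that setting.

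No member passed in T532M input, where 1 gene did (0.00548%), or in polysomes, where none did (0.0%). At an unadjusted p under 0.05 there were 2 of 10 members in input, 3 in monosomes and 1 in polysomes, beside 10.7%, 11.8% and 7.92% of all genes. DESeq2 called 0, 2 and 0 members, and 0.663%, 3.09% and 0.0219% of all genes. Genotypes did not overlap for 3 members in input (Phf10 and Ss18 above, Dpf3 below; 13.4% of all genes), 3 in monosomes (Phf10 above, Dpf2 and Dpf3 below; 21.4%) and Dpf3 in polysomes (9.5%). The log2 ratio of Dpf3 over Phf10 gathered these shifts: in monosomes it was -2.57 ± 0.52 (n = 3) in controls and -3.85 ± 0.14 in cHet, and in LoF -2.75 ± 0.21 and -2.79 ± 0.17. Actl6b over Actl6a in monosomes was 0.51, -0.28 and 0.65 in T532M controls and 0.09, -0.26 and -0.15 in cHet, which overlapped.

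**Figure D5:**
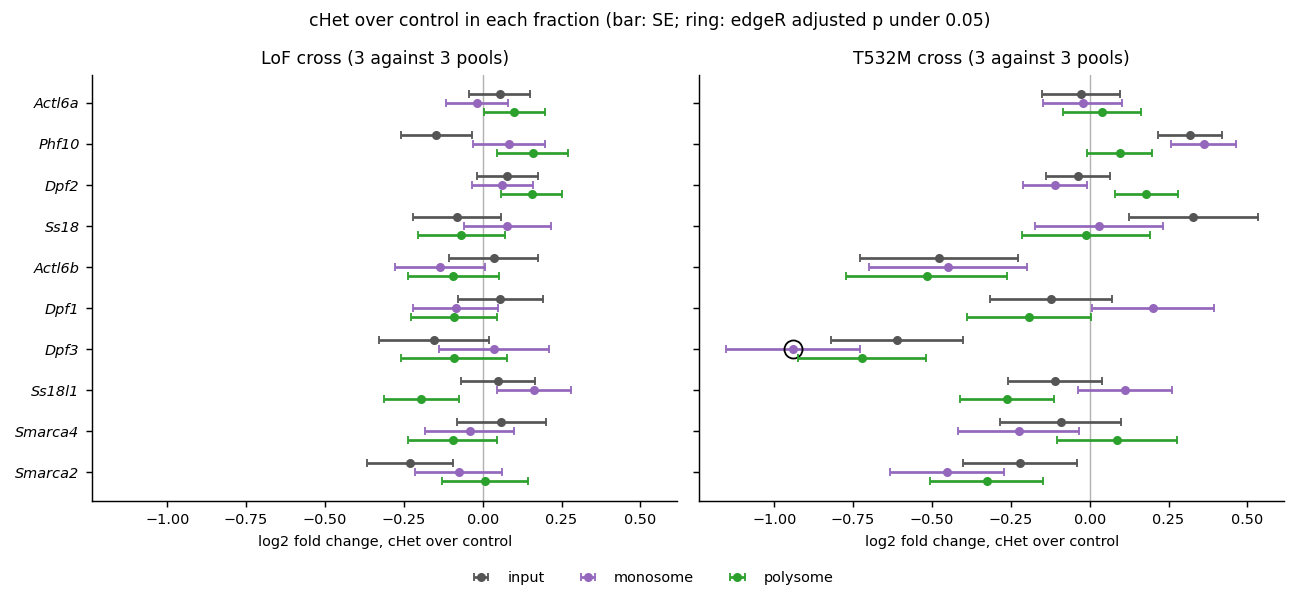
Log2 fold change of cHet over control for each subunit in input, monosomes and polysomes, with SE bars, on the same axis for both crosses; the ring marks the value that passed edgeR's test. LoF values lie within -0.23 to 0.16, and T532M values reach -0.94 for Dpf3 in monosomes.

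The change of a fraction ratio with genotype was tested next. By edgeR, none of the 10 members passed for the change of polysome over monosome in LoF cHet (background 0.0%) or T532M cHet (0.0603%), nor for that of polysome over input (0.0108% and 0.0%). At an unadjusted p under 0.05 there was 1 member in LoF polysome over monosome (Ss18l1, -0.36) and none in the other 3. Of all genes, 3.02% had such a p in that comparison and 6.1% to 6.87% in the others, and DESeq2 called no member. For Dpf3 in T532M, the change of polysome over monosome was 0.22 (SE 0.292). The difference between the crosses was also tested itself. No member passed for LoF minus T532M in input (0.0105% of 19121 genes passed), monosomes (0.0%) or polysomes (0.0%), with 1 of 10 members at an unadjusted p under 0.05 in each, beside 15.9%, 6.69% and 5.59% of all genes. These were Phf10 in input (-0.48, edgeR adjusted p = 0.0963), Dpf3 in monosomes (0.97, adjusted p = 0.384) and Dpf3 in polysomes (0.64, adjusted p = 0.829). DESeq2 called 1 member in input, where it called 3.77% of all genes, and none in the other fractions. Averaged over both crosses, no member passed in input (0.0%), monosomes (0.873%) or polysomes (0.0%), with 1, 3 and 4 members at an unadjusted p under 0.05, beside 4.44%, 10% and 6.53% of all genes. The lowest adjusted p was that of Dpf3 in monosomes, 0.146 at -0.45, which DESeq2 called (-0.47, adjusted p = 0.0367) with 2.17% of all genes.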

How the data were processed

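Per the file headers, the authors counted read pairs per gene with featureCounts 2.0.3 over whole gene spans, strand setting 2, on GENCODE M25 (GRCm38). FastQC 0.11.7, STAR 2.7.11a and DESeq2 1.34.0 are named in the submitters' processing notes. The deposited count table was the base of all tests. The authors' deposited tables hold log2 fold changes and p-values. edgeR 4.0.16 (R 4.3.3; filterByExpr, TMM, glmQLFit, glmQLFTest) was fitted per cross on 18 libraries and on 36 libraries for comparisons between crosses. P-values were adjusted over all 18556, 18243 or 19121 genes tested, at a threshold of 0.05. CPM use TMM-scaled library sizes. DESeq2 1.42.0, other scalings, no filter, a replicate block and leaving out each pool were tried. Scripts were tested on simulated data. All 10 members were named, and ratios and likeness carry no test. The members and lists were chosen with earlier results of these data known. Nothing says that pools of a group were separate litters, so p-values speak of these pools only. The main fits treat the 18 libraries of a cross as independent, though these come from 6 pools. Each gene's spread is estimated over all fractions together, so the main p-values do not measure the spread between pools alone. Same-numbered T532M fractions deviated together (r of 0.12 to 0.64 in 18 of 18 pairs), since each number is 1 pool. Between cHet and control of 1 number r was over 0.1 in 1 of 9 LoF and 6 of 9 T532M pairs, the 3 monosome pairs of T532M among them (0.154 to 0.236), so the blocked value stands beside that result. Over all such pairs r ran from -0.62 to 0.29 in LoF and from -0.38 to 0.43 in T532M. A shared number thus did not link the genotypes throughout, and the block by number may not mark a shared batch. Transcript features and 3′ UTR sequence come from GENCODE M21 (GRCm38), 1 principal transcript a gene, and the microRNA from RefSeq.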

Additional observations from a re-analysis of the deposited data

How the results depend on the processing

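Of the counts of called members, 265 values under other settings equalled the reported count or were within 1.5 times it, and 19 were not. The reported count was 0 in most comparisons that involve genotype, and an equal value there means that no member passed. T532M monosome over input fell from 7 to 4 without control pool 1 and to 3 without control pool 3, in a range of 3 to 8 over the pools left out. T532M cHet over control went from 0 to 3 without control pool 2 in input, from 1 to 2 with DESeq2, to 0 with library totals and to between 0 and 4 with a pool left out in monosomes, and from 0 to 1 without the low-count filter and to 2 without control pool 2 in polysomes. LoF minus T532M went from 0 to 1 with DESeq2 and to 2 without T532M control pool 2 in input, and to 1 without that pool in monosomes. The mean effect in monosomes went from 0 to 1 with DESeq2, without LoF cHet pool 1 or without T532M control pool 2.

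Library totals in place of TMM factors, a scaling chosen after seeing the data, turned the sign of Phf10 (-0.18 and -0.43), Ss18 (-0.17 and -0.14) and Ss18l1 (-0.40 and -0.43) in polysome over monosome of LoF and T532M controls. In polysome over input they turned Phf10 (-0.85 and -0.67) and Ss18l1 (-0.51 and -0.53) in both crosses, and Ss18 in LoF (-0.00039). Values near 0 that had not passed also turned: Dpf2 in LoF polysome over input (0.0243 with DESeq2 and 0.0242 with RLE factors), Phf10 there (0.00) without LoF control pool 3 (-0.0413) or LoF cHet pool 1 (-0.00686), in a range of -0.0413 to 0.0629 over the pools left out, and Dpf3 in LoF monosome over input (-0.17) without LoF control pool 1 (0.00683). The totals leave out the TMM factors by construction; the cause of the other turns was not tested.

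With the pool as a block, Actl6b passed in polysome over monosome of LoF (-0.26, adjusted p = 0.0136) and T532M controls (-0.33, adjusted p = 0.00879), Dpf1 in LoF monosome over input (-0.28, adjusted p = 0.0257) and Ss18 in T532M monosome over input (0.44, adjusted p = 0.0353). In the LoF cross fractions with the same number deviated together in 11 of 18 pairs. The replicate block changed no other call of a member. Counting error bears most on Dpf3, with 214 read pairs in its lowest library.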
